A study of Homo sapiens with 8 samples.

Results

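Clones 3 and 6 of A673/TR/shFEZF1 were compared with clone 5 and the polyclonal population of the same line, to describe how far cells of 1 engineered tumour line stood apart, with the shRNA uninduced and induced. A673 is an established Ewing sarcoma cell line, a bone and soft tissue tumour driven by the EWSR1-FLI1 fusion. Its TR derivative is a single clone that carries the tetracycline repressor, and the shFEZF1 cells were made from it by electroporating a doxycycline-inducible hairpin against FEZF1 and selecting with zeocin. Messenger RNA was sequenced from 8 cultures: the polyclonal population (labelled bulk) and clones 3, 5 and 6 (labelled c3, c5 and c6), each grown once untreated and once with doxycycline at 1 µg/mL for 72 h. Every culture carried the repressor and the hairpin, so none is a line without the construct. The clones had been kept by the study for strong loss of FEZF1 protein under doxycycline.

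Side A is the 4 cultures of clones 3 and 6, and side B the 4 cultures of the polyclonal population and clone 5, so all 8 libraries of the series were used. The sides were chosen from the expression values of these same libraries, and the differences between them are therefore given as a description, with no test. The 2 cultures of an origin share their source, so each side holds 4 cultures of 2 origins. The tests drawn on are those of contrasts other than side A against side B: clone 6 against clone 3, clone 5 against the polyclonal population, and the doxycycline effect on one side against the other. The choice did decide which origins share a side, so the pairs within sides were not fixed apart from these values. Differences are log2 of side A over side B, after adjustment for doxycycline.

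Clones of one tumour line can differ for several known reasons. Each grows from a single cell and fixes that cell's gains and losses of chromosome segments, its promoter methylation and its place on a range of cell states. In Ewing sarcoma that range is known to run from cells with a strong fusion programme, rich in neural genes, to cells with more extracellular matrix, adhesion and contractile genes, which the fusion represses. A polyclonal population averages many such cells.

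Reads assigned per library ran from 26719886 to 42422421, and 89.9 to 91.1% of them belonged to a gene with a symbol. Clone 6 had the shallowest libraries, at 28170989 and 26719886. Genes at 0.5 CPM (counts scaled by the library total) or more numbered 14112 to 14656 in side A and 14780 to 15058 in side B, so fewer weak genes were detected in side A; the part of depth in the counts of weak genes was not tested. Ewing markers were present throughout, with the summed level of 8 markers (NR0B1, NKX2-2, STEAP1, CD99, PRKCB, BCL11B, CCND1 and PPP1R1A) at 3940 to 5780 CPM in side A and 4550 to 4840 in side B. The 7 epithelial markers summed to at most 3.42 CPM, with KRT5, KRT14, KRT19 and GRHL2 under 0.5 CPM in every culture, and the 2 endothelial markers to at most 1.28. The 6 blood markers summed to 5.58 to 10.9 CPM in side A and 7.2 to 11.2 in side B, nearly all of it HBB, with CD3E at 0 in every culture. The file of untreated clone 5 is laid out differently from the others, and results are also given without it.

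FEZF1, the zinc finger factor that the hairpin targets (GRCh38 chr7:122301303-122310691), was lower with doxycycline in all 4 origins. Its level was 96.4 CPM untreated and 60.6 with doxycycline in the polyclonal population, 107 and 60.8 in clone 5, 70.5 and 43 in clone 3, and 74.4 and 36.4 in clone 6. The clones of side A were below both origins of side B in each treatment, with a difference of -0.55. FEZF1-AS1, the overlapping RNA from the opposite strand, had a difference of -0.48. The strand setting of the quantification is not given in the sources used here, so FEZF1 and FEZF1-AS1 cannot be fully told apart. EWSR1, the 5′ partner of the fusion, lay at -0.06, on 52.9% of its reads. No FLI1 reads could be matched to its symbol, so the fusion's own level was not analysed here.

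A gene is called set apart here when its difference was at least 1 and both cultures of one side lay beyond both of the other, among untreated cultures and again among doxycycline cultures. Of 15993 genes, 145 were set apart with higher levels in side A (0.907%) and 566 with lower levels (3.54%). The excess of lower genes sat mostly among weak ones. Where the higher side had at least 5 CPM, 85 genes were higher and 140 lower, 0.772% and 1.27% of 11005, whereas under 5 CPM 60 were higher and 426 lower. The share set apart lower was thus above 3.54% among weak genes. For lists of weak genes the share over all genes is therefore a low mark. The median difference over all genes was -0.004.

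Genes were ranked by their difference among those set apart with at least 5 CPM in the higher side and with the 2 origins of each side within 1 log2 unit of each other. Of the ranked genes with at least 80% of their reads matched, NOS1 and ARMCX2 had the largest differences, both lower in side A. TNS2, described further on, had a larger one on 65.6% of its reads. NOS1 encodes the neuronal nitric oxide synthase (chr12:117208142-117452170). Its level was 42.3 and 38.7 CPM in the polyclonal population, untreated and then with doxycycline, and 51.4 and 53.9 in clone 5. In clone 3 it was 3.15 and 2.7, and in clone 6 it was 3.54 and 3.62. The groups did not overlap, at 3.25 ± 0.419 against 46.6 ± 7.23 CPM (SD, n = 4 cultures of 2 origins a side), a difference of -3.81. ARMCX2, an X-linked armadillo repeat gene (chrX:101655281-101659850), was at 90.3 and 95.4 CPM in the polyclonal population and 133 and 125 in clone 5. It stood at 9.17 and 7.88 in clone 3 and at 12.5 and 13.2 in clone 6, a difference of -3.38.

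On the higher side, ATP1B1, the beta subunit of the sodium-potassium pump (chr1:169105697-169310992), was at 72.6 and 91.4 CPM in clone 3 and 52.8 and 62.4 in clone 6. It was at 19.9 and 22.9 in the polyclonal population and 25.4 and 29 in clone 5, a difference of 1.5. The 250 bases before the RefSeq start of these 3 genes and of CD44, which is described further on, are printed. All 4 have 1 listed start. NOS1, ARMCX2 and ATP1B1 lead the ranked genes with at least 80% of their reads matched. CD44 is not a ranked gene, since its origins lay over 1 log2 unit apart within a side, and was added by choice. The NOS1 window lies inside the gene span given above, far from its 5′ end, so it flanks an internal start. They are on GRCh38.p14, 5′ to 3′ along the gene, with each CG, the pair at which human DNA is methylated, in capitals.
NOS1, chr12:117309411-117309660, minus strand: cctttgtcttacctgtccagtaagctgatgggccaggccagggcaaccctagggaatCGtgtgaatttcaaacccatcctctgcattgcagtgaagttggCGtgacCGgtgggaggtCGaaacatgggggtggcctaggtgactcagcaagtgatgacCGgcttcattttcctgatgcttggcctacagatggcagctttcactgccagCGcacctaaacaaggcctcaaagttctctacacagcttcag
ARMCX2, chrX:101659851-101660100, minus strand: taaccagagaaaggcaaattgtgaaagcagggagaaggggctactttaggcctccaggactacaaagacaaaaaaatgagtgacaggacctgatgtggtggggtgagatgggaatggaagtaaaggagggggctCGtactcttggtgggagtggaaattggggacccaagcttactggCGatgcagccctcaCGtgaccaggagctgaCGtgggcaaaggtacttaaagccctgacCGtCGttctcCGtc
CD44, chr11:35138921-35139170, plus strand: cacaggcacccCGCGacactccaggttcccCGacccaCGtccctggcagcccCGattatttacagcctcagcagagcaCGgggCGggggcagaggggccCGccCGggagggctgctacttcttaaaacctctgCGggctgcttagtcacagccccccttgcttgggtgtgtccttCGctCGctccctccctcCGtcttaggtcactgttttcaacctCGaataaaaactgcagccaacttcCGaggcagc
ATP1B1, chr1:169106440-169106689, plus strand: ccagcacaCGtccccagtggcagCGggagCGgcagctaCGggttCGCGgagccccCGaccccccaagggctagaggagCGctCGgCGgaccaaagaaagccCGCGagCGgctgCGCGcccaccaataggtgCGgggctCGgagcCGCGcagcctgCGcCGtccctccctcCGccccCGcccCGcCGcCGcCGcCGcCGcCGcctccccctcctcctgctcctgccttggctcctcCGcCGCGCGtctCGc

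The 4 windows held 6, 7, 15 and 35 CG pairs in that order, against a median of 11 over the 35114 windows of the same length in the table. As many CG pairs as in the ATP1B1 window were found in 5.8% of all windows, and as many as in the NOS1 window in 61.9%. GGAAGGAA, a repeat of the core that ETS factors and EWSR1-FLI1 are known to bind, was searched on both strands and was in none of the 4, against 3.06% of all windows. Methylation and binding were not measured in these libraries.

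**Figure D1:**
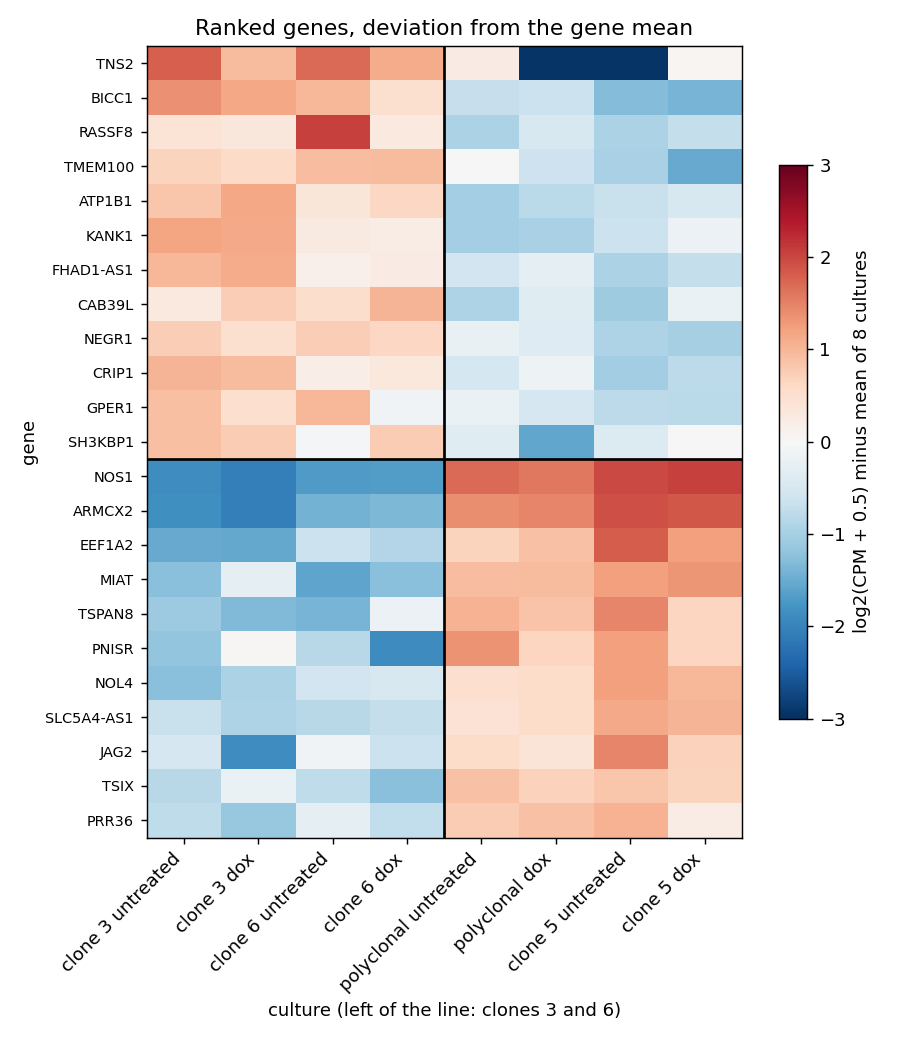
Heat map of 23 ranked genes (rows, 12 higher and 11 lower in side A) in the 8 cultures (columns, side A left of the line), coloured by log2(CPM + 0.5) minus the gene's mean over the cultures, with the scale ending at -3 and 3. NOS1 and ARMCX2 lie below their mean in all 4 cultures of side A and above it in all 4 of side B, TNS2 is lowest in the 2 cultures of side B where it was listed at 0, and RASSF8 is highest in untreated clone 6.

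The other genes ranked lower in side A had differences of -2.44 to -1.61. EEF1A2, the elongation factor of neurons and muscle (-2.44), ran from 2.47 to 4.99 CPM in side A and from 13.2 to 29.9 in side B. MIAT, a long noncoding RNA of chromosome 22 (-2.44), ran from 1.33 to 3.98 and from 9.92 to 13.3. TSPAN8, a tetraspanin (-2.42), and NOL4, a nucleolar protein gene of neural tissue (-1.88), did not overlap either. PRR36 (-1.61) and SLC5A4-AS1 (-1.77) followed. PNISR (-1.99) and the Notch ligand JAG2 (-1.63) rest on 26.8% and 55.9% of their reads.

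Apart from TNS2 and BICC1, the genes ranked higher in side A had differences of 1.24 to 1.77. NEGR1, a neuronal adhesion protein (1.31), was at 27.9 and 23.2 CPM in clone 3, 27.9 and 25.7 in clone 6, 14.1 and 12.5 in the polyclonal population and 8.49 and 8.03 in clone 5. Its clones 3 and 6 were close to each other and farther from clone 5 than from the polyclonal population. CAB39L, a cofactor of the kinase LKB1 (1.32), was at 24 to 40.3 CPM in side A and 9.03 to 16.9 in side B. KANK1, which links adhesions to the cytoskeleton (1.44), was at 24.7 to 49 and 10.2 to 18.7. CRIP1, a LIM protein (1.28), the estrogen-binding receptor GPER1 (1.26) and FHAD1-AS1 (1.43) also had most of their reads matched. TMEM100, a membrane protein (1.62), and BICC1, an RNA-binding protein (2.26), rest on 78.4% and 76.2% of their reads, and TNS2 (4.26), RASSF8 (1.77) and SH3KBP1 (1.24) on 65.6%, 16.1% and 18.8%. TNS2, a focal adhesion protein, was at 6.86 to 12.7 CPM in side A, at 4 and 3.49 in 2 cultures of side B and listed at 0 in the other 2. RASSF8 was at 14.1 CPM in untreated clone 6, at 3.79 to 4.19 in the rest of side A and at 1.31 to 2.03 in side B.

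The sides were not equally coherent, and clones 3 and 6 did not form a pair of like clones. Genes at least 2-fold apart in both treatments numbered 1058 between clones 3 and 6 (6.62% of all genes) and 355 between clone 5 and the polyclonal population (2.22%). Across the split they numbered 800 between clone 3 and the polyclonal population, 958 between clone 6 and the polyclonal population, 965 between clones 3 and 5, and 1581 between clones 5 and 6. By these counts clone 3 was therefore no closer to clone 6 than to either origin of side B. Over all genes, deviations from the treatment mean correlated at 0.406 to 0.59 between the 2 cultures of an origin. They ran from -0.414 to 0.001 between clones 3 and 6, and from -0.115 to 0.179 between clone 5 and the polyclonal population. Between cultures of different sides they ran from -0.563 to -0.102. Untreated, clone 3 correlated at -0.195 with clone 6, -0.459 with the polyclonal population and -0.46 with clone 5. With doxycycline these were -0.414, -0.363 and -0.212, so the order was not the same in both treatments. These are correlations over 15993 genes, which share a library and are no replicates, and deviations among 4 cultures sum to 0 and so lean negative.

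**Figure D2:**
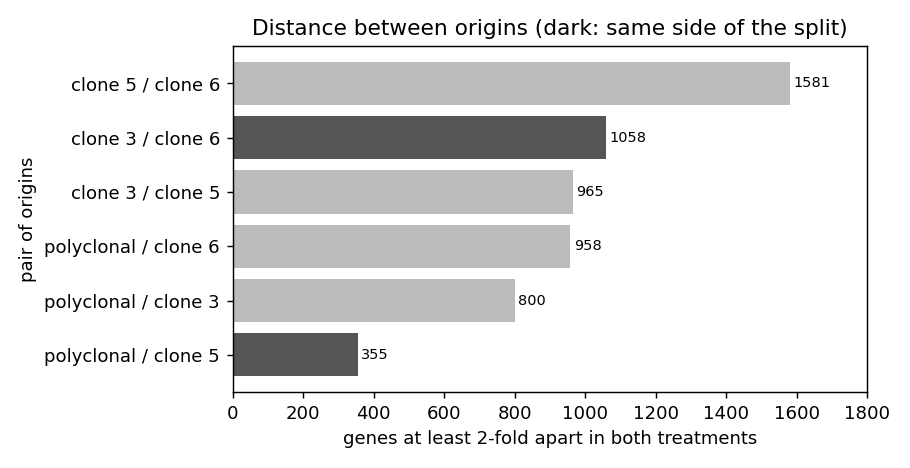
Number of genes at least 2-fold apart in both treatments (horizontal axis, from 0) for each of the 6 pairs of origins, with the 2 pairs that lie within a side in dark bars. The shortest bar is clone 5 against the polyclonal population at 355, and the pair of clones 3 and 6 has the second longest at 1058.

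Tests of the contrasts within the sides gave the same order. They use the same 8 libraries, and the pairs follow from the choice of sides, so they are no separate support for it. Clone 6 differed from clone 3 in 4181 genes by edgeR's quasi-likelihood test at an adjusted p under 0.05 (26.1%), 2041 higher (12.8%) and 2140 lower (13.4%) in clone 6. Clone 5 differed from the polyclonal population in 1072 (6.7%), 404 higher (2.53%) and 668 lower (4.18%). Leaving out 1 culture of either pair lowered these counts, to 1223 for clones 3 and 6 without clone 6 with doxycycline, and to 122 for clone 5 and the polyclonal population without the polyclonal culture with doxycycline. An edgeR F test over all 4 origins passed in 6300 genes (39.4%), but it contains the split from which the sides were chosen and nothing is drawn from it here. Of the 711 genes set apart, 210 differed between clones 6 and 3, and 95 between clone 5 and the polyclonal population.

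The 5 genes with the smallest p between clones 6 and 3 included 3 of the mesenchymal list described further on. CD44, the hyaluronan receptor, was at 102 and 115 CPM in clone 3 and 19.7 and 20.6 in clone 6, and TAGLN, an actin-binding protein of contractile cells, at 124 and 91.3 against 16.3 and 13. NT5E, a surface nucleotidase, was at 129 and 92.7 against 24.2 and 16.6. CD44, TAGLN and NT5E were 2.43, 2.87 and 2.45 log2 units lower in clone 6, each with an edgeR adjusted p of 4.75e-05. Clone 6 was also lower in COL12A1 (by 2.44) and higher in PRAME, a cancer-testis antigen (by 1.77), both with an edgeR adjusted p of 5.99e-05. Between clone 5 and the polyclonal population the smallest p was that of COL1A2, 3.11 lower in clone 5 (edgeR adjusted p = 1.62e-05). NES, the intermediate filament nestin, fell by 1.90 and the peptidase gene PRCP by 2.16 in clone 5, and AMER1, an X-linked Wnt regulator, by 3 log2 units. SLC43A3, a purine transporter, was 4.25 higher in clone 5, at 32.7 and 33.1 CPM against 1.52 and 1.96. These 4 had an edgeR adjusted p of 0.000286.

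The doxycycline effect on side A against side B passed the test in no gene (0%) by edgeR, with 371 genes at an unadjusted p under 0.05, and in 10 genes by DESeq2. The smallest edgeR adjusted p was 0.207, for PLEKHA1, TTLL1, MEST, MPP7 and LOC107987423, of which the first 4 rest on 28.4 to 64.4% of their reads. The standing difference of NOS1 was -3.78 untreated and -3.84 with doxycycline, that of ARMCX2 -3.34 and -3.41, and that of ATP1B1 1.46 and 1.55.

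Of the gene lists examined, the mesenchymal list, genes of matrix, adhesion and contraction that EWSR1-FLI1 is known to repress, held the highest share of genes set apart higher in side A. Of its 45 tested members 6 were set apart higher (13.3%, against 0.907% of all genes) and 1 lower, 33 had a positive difference, and the median was 0.45 against -0.004 over all genes. COL1A2, a chain of type I collagen (chr7:94394895-94431227), was at 1610 and 1590 CPM in clone 3 and 827 and 804 in clone 6. In the polyclonal population it was at 617 and 658, and in clone 5 at 68.1 and 79.6, so that clone 6 lay nearer to the polyclonal population than the latter to clone 5. The sides' means were 1210 ± 452 and 356 ± 326 CPM (SD, n = 4 cultures of 2 origins a side). COL3A1, the type III collagen chain, ran in the same order with 1160 and 1220, 483 and 567, 342 and 392, and 156 and 178 CPM. CD44 (chr11:35138882-35232402) was near 20 CPM in clone 6 and hardly lower in the polyclonal population, at 17.7 and 19.2, and at 6.53 and 7.53 in clone 5. Its difference of 2.03 thus came chiefly from clone 3 on one side and clone 5 on the other.

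ACTA2, smooth muscle actin (1.08), MMP2, a matrix-degrading protease (1.18), and IGFBP3, an IGF-binding protein that the fusion is known to repress (1.62, at most 1.45 CPM), were the other 3 higher members. TGFBI, a secreted matrix protein, was the 1 lower member: 0.883 to 2.5 CPM in side A, 6.73 and 3.81 in the polyclonal population, and 49.4 and 27.4 in clone 5. COL1A1 and THBS1, members that were not set apart and were picked after their values were seen, were highest in clone 3. COL1A1 was at 1380 and 1250 CPM in clone 3 and at 172 to 506 in the other 6 cultures, and THBS1 at 13.1 and 13 against 0.472 to 2.15. As the median deviation from the mean of the 4 origins, the list stood at 0.63 in clone 3, -0.06 in the polyclonal population, -0.14 in clone 6 and -0.45 in clone 5. Between clones 6 and 3, 29 of the 45 members were lower in clone 6 (against 13.4% of all genes) and 4 higher (against 12.8% of all). Between clone 5 and the polyclonal population 20 were lower in clone 5 (against 4.18% of all) and 5 higher (against 2.53% of all; edgeR adjusted p under 0.05).

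**Figure D3:**
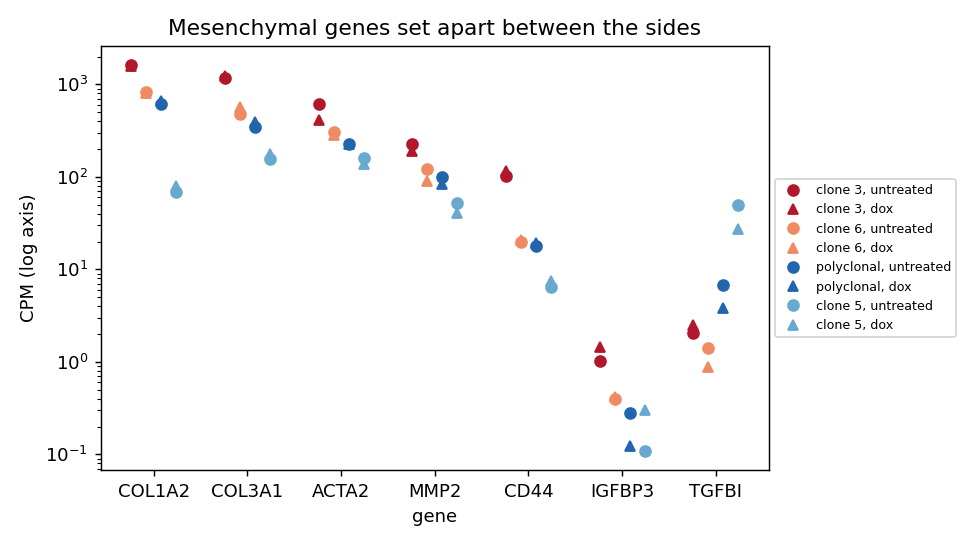
CPM on a log axis of the 7 mesenchymal genes set apart between the sides (horizontal axis) in the 8 cultures, with circles for untreated and triangles for doxycycline cultures and 1 colour per origin. From COL1A2 to CD44 the order is clone 3, clone 6, polyclonal population, clone 5, with clone 6 nearly level with the polyclonal population in CD44, and TGFBI is highest in clone 5.

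Of 108 tested transcription factors that the study lists as higher after EWSR1-FLI1 knockdown, 4 were set apart higher (3.7%, against 0.907% of all genes) and none lower (against 3.54%), with a median of 0.13. The first of them, ETS1, a factor of the family to which FLI1 belongs, was at 52.5 and 65.4 CPM in clone 3, 10.5 and 16 in clone 6, 8.5 and 8.26 in the polyclonal population and 2.43 and 4.71 in clone 5. ATOH8, a bHLH factor (1.37, on 65% of its reads), was level in clones 3 and 6 at 37.2 to 41.5 CPM and lowest in clone 5 at 9.91 and 10.3. SP140L (1.31) and ARNT2 (1.39, under 1 CPM) were the others. SP140L was at 13.9 and 14.4 CPM in clone 3, but at 3.98 and 4.58 in clone 6, close to the 1.89 to 3.84 of side B. Of 86 factors listed as lower after knockdown, 1 was set apart higher (1.16%) and 4 lower (4.65%), near the shares of all genes, with a median of -0.13. The 28 activated targets of the fusion held 1 set-apart gene, a lower one (3.57%, near the share of all genes), and a median of -0.07. That gene was CCK, a neuropeptide: 53.8 and 154 CPM in clone 5, 13.8 and 23.7 in the polyclonal population, 2.17 and 3.08 in clone 3, and 2.61 and 8.66 in clone 6, higher in the doxycycline culture of each. Between clones 6 and 3, 14 of the 28 were higher in clone 6 (against 12.8% of all genes) and 1 lower (against 13.4% of all; edgeR adjusted p under 0.05). PRKCB, a kinase that the fusion induces, was at 169 to 266 CPM in side A and 306 to 453 in side B, a difference of -0.78, under the size the rule asked.

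Neuronal genes and ion channels had lower medians in side A, though not alike in every origin. As median deviations from the mean of the 4 origins, ion channels stood at 0.25 in the polyclonal population and -0.23 in clone 6. Clones 5 and 3 were nearly level in them, at 0.05 and -0.02. Neuronal genes stood at 0.22 in clone 5, 0.07 in the polyclonal population, -0.1 in clone 6 and -0.16 in clone 3. Of 29 neuronal genes 4 were set apart lower (13.8%, against 3.54% of all genes) and 1 higher, with a median of -0.32. POU3F2, a neural POU factor, was at 5.73 and 7.91 CPM in clone 3, 17.7 and 20.6 in clone 6, 31.7 and 36.3 in the polyclonal population and 28.8 and 42.1 in clone 5. NEFH, the heavy neurofilament (-1.80), ELAVL3, a neuronal RNA-binding protein (-1.73), and NTRK3, the neurotrophin-3 receptor (-1.37), were the others. NCAM1, the neural adhesion molecule, ran against them (1.44), at 20.4 to 28.5 CPM in side A, 16 and 16.1 in the polyclonal population and 5.44 and 4.55 in clone 5. Of 31 ion channels 5 were set apart lower (16.1%) and 1 higher, 24 had a negative difference, and the median was -0.38. Among them SCN2A, a sodium channel (-2.36, on 52.4% of its reads), and TRPM8, a cold receptor (-2.30), were at most at 2.07 CPM. NEFH and ELAVL3 were at 1.98 and 3.37 CPM on average in side B. Under 5 CPM genes were set apart lower more often than over all genes. Among 39 axon guidance genes, the Eph receptor EPHA5 (-2.29) and the semaphorin SEMA5B (-1.24) were lower (5.13%, near the share of all genes). None was higher, and the median was 0.02.

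Among imprinted genes, which are expressed from 1 parental copy, PEG3 differed most. PEG3, a paternally expressed zinc finger gene (chr19:56810077-56840728), was at 214 and 219 CPM in the polyclonal population and 60.9 and 78 in clone 5. It was at 1.76 and 1.95 in clone 3 and at 7.84 and 7.74 in clone 6, a difference of -4.98. Within the sides, clone 6 stood above clone 3 by 2.07 (edgeR adjusted p = 0.000419) and clone 5 below the polyclonal population by 1.65 (edgeR adjusted p = 0.000711). KCNQ1OT1 (-1.10) and L3MBTL1 (-1.15) were also lower, so 3 of the 20 tested imprinted genes were set apart lower (15%, against 3.54% of all genes). The other 17 were not set apart, and the median of the list was -0.01. KCNQ1OT1 was lowest in clone 6, at 14.3 and 9.29 CPM. With doxycycline it was nearly level in clone 3 and the polyclonal population, at 30.4 and 30.8 CPM.

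NLRP2, an inflammasome-family gene (chr19:54953130-55001142), was the 1 gene above 2 CPM in all cultures of one side and below 0.5 CPM in all of the other. It was at 0.158 and 0.494 CPM in clone 3, 0.362 and 0.126 in clone 6, 6.91 and 7.52 in the polyclonal population and 73.9 and 60.5 in clone 5. Clone 5 stood 3.22 above the polyclonal population (edgeR adjusted p = 0.00114). HSFX1, on the X chromosome, was at 0 in all 4 cultures of side A and at up to 1.21 CPM in side B, but it has a near-identical copy between which reads could be split. No gene was on in side A alone.

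TSIX, the antisense RNA of the X inactivation centre, was at 14.1 to 16.3 CPM in side B and 3.36 to 7.56 in side A (-1.61). It overlaps XIST on the opposite strand, and they too cannot be fully told apart. XIST itself, which silences an X chromosome and was singled out after its values were seen, was at 596 and 401 CPM in the polyclonal population, 504 and 421 in clone 5, 84.8 and 35.6 in clone 6 and 0.347 and 0.552 in clone 3. The median difference of the 514 tested X-linked genes was 0.01. Of these, 24 were set apart lower (4.67%) and 6 higher (1.17%), against 3.54% and 0.907% of all genes. NLGN4X, a synaptic adhesion gene (-1.29, on 63.1% of its reads), was among the lower ones.

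Of 11 tested cancer-testis genes, which are normally silent outside the germ line, 2 were set apart lower (18.2%, against 3.54% of all genes) and none higher, with a median of -0.51. They were LIN28A (-1.15) and MAGEA10 (-1.13), both under 1 CPM in every culture. Weak genes were set apart lower more often than the share of all genes. Of 46 genes of the Wnt, Notch, BMP and Hedgehog pathways only JAG2 was set apart (2.17% lower, under the share of all genes), with a median of 0.08. Of 53 clustered protocadherins, which mark neural cells with combinations of surface variants, PCDHGB7 (2.07) and PCDHGA8 (1.85) were higher and PCDHGA3 (-1.83) and PCDHGA12 (-1.39) were lower, with 1 more lower. The protocadherin list thus held 3.77% higher and 5.66% lower, against 0.907% and 3.54% of all genes. Its members share their last exons, so that reads could be split between them. PCDHGB7 was highest in clone 3, at 10.1 and 10.2 CPM, and PCDHGA8 in clone 6, at 8.04 and 7.15. The interferon list held IFI44L (-1.45) and XAF1 (-1.15) among 39 genes (5.13% lower, near the 3.54% of all genes). The adhesion list held 3 higher (6.12%, against 0.907% of all genes) and 2 lower (4.08%, near the share of all genes) of 49. Among them CNTN4 (1.37) and ITGA9 (1.07) were higher and PCDH8 (-1.11) lower. CNTN4 was at 5.87 to 8.2 CPM in side A, 5.59 and 5.25 in the polyclonal population and 1.05 and 1.59 in clone 5. ITGA9 was at 9.17 to 10.2, 6.23 and 7.34, and 2.69 and 3.42 CPM, so in both the polyclonal population lay nearer to side A than to clone 5. The stress list had SRXN1, an antioxidant enzyme (1.14), and FOSB (-1.22, on 59.1% of its reads) of 34, 2.94% in each direction. The 29 HOX genes, 30 hypoxia and glycolysis genes and 17 genes of the small RNA machinery held none, with medians of 0.14, 0.09 and -0.06. Of 38 proliferation genes 30 had a positive difference, with a median of 0.14. The 1 set apart was lower (2.63%, against 3.54% of all genes): MCM5, a subunit of the replicative helicase.

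MCM5 lies in a stretch of chromosome 22 in which all tested genes were lower in side A. Taken along the genome in windows of 50 tested genes, 6 windows had a median at least 0.3 away from that of all genes, with the same sign in both treatments, and all 6 were lower. The strongest, chr22:29883169-36267530, had a median of -0.89, and 50 of its 50 genes were lower, 14 of them set apart. Its median deviation was 0.55 in clone 5, 0.31 in the polyclonal population, -0.36 in clone 3 and -0.53 in clone 6, and each culture lay close to its origin, at 0.56 and 0.54, 0.36 and 0.31, -0.35 and -0.38, and -0.48 and -0.59. Within sides, 8 of the 50 genes were higher in clone 5 than in the polyclonal population (against 2.53% of all genes). In clone 6, 12 were lower than in clone 3 (against 13.4% of all) and 1 higher (against 12.8% of all; edgeR adjusted p under 0.05). Leaving out each culture in turn gave -0.94 to -0.78 for the window that then covered this stretch.

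**Figure D4:**
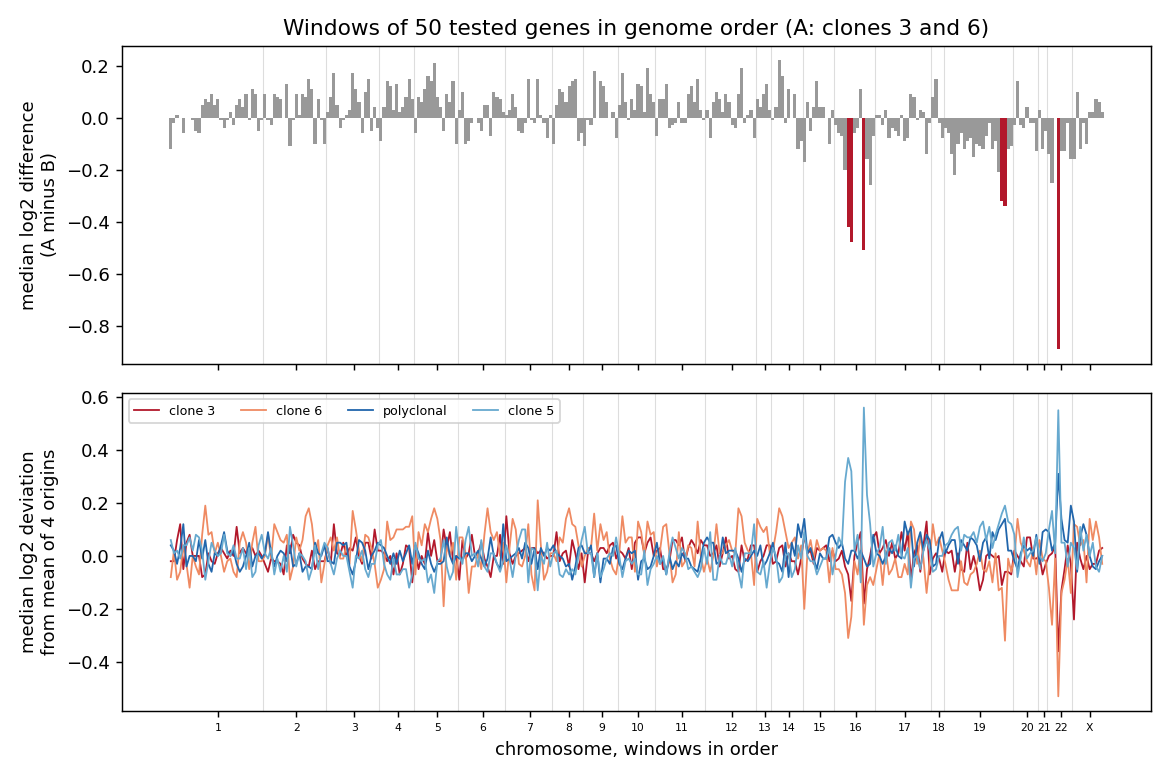
Windows of 50 tested genes in genome order (horizontal axis, chromosomes 1 to 22 and X), with the median log2 difference of side A minus side B above (listed windows in red) and the median deviation of each origin from the mean of the 4 below. The deepest bar is the chromosome 22 window at -0.89, and on chromosome 16 the line of clone 5 reaches 0.56.

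EWSR1 itself (chr22:29268009-29300525) had a difference of -0.06, and the genes at 5 CPM or more between it and the stretch, from GAS2L1 to ASCC2, lay between -0.25 and 0.45. Weak genes there, at mean levels of 0.384 to 1.25 CPM, were lower: NEFH (-1.80, set apart), RFPL1S (-0.88), CABP7 (-0.71) and SNORD125 (-0.33). MTMR3, 0.62 Mb from the start of EWSR1, opens the stretch by its sign alone, at -0.02 and 56.9 to 69.3 CPM in every culture. From MTMR3 to RAC2 (chr22:29883169-37259594, 7.38 Mb) 61 tested genes in a row were lower in side A, 56 of them by at least 0.5, with a median of -0.89. The next longest run on any chromosome held 32 genes. The stretch was chosen after its values were seen. MCM5 (chr22:35400134-35425431) was at 261 and 235 CPM in the polyclonal population, 336 and 257 in clone 5, 152 and 118 in clone 3, and 142 and 114 in clone 6, a difference of -1.05 with no overlap. MYH9, the nonmuscle myosin heavy chain (-1.02), was at 704 to 776 CPM in side B, 514 and 484 in clone 3 and 284 and 249 in clone 6. RBFOX2, a splicing regulator, at 147 to 167 CPM against 249 to 292 (-0.79), and EIF3D, a translation initiation subunit, at 129 to 151 against 240 to 307 (-0.93), were lower without passing the size the rule asked. TIMP3, an inhibitor of matrix proteases, was the exception among the strong genes, at 256 to 424 CPM against 311 to 592 (-0.24). Beyond the stretch CARD10 (0.45) and LGALS1, the lectin galectin-1 (1.96, lowest in clone 5 at 96.2 and 95.7 CPM), were higher in side A.

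**Figure D5:**
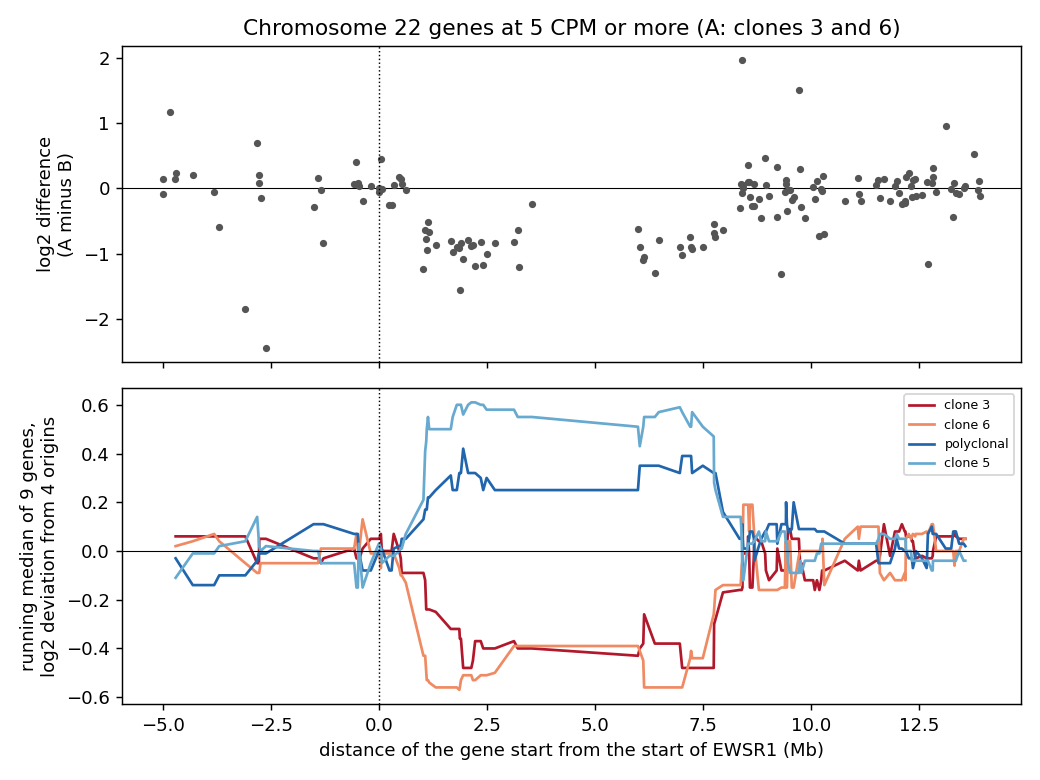
Genes of chromosome 22 at 5 CPM or more by distance from the start of EWSR1 in Mb (horizontal axis, dotted line at EWSR1), with each gene's log2 difference of side A minus side B above and the running median of 9 genes of each origin's deviation from the mean of the 4 below. Between about 1 and 8 Mb the points sit near the median of -0.89, with clone 5 and the polyclonal population above 0 and clones 3 and 6 below. On either side of this stretch most points lie closer to 0, though single genes such as MIAT (-2.44) and LGALS1 (1.96) lie far from it.

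In the windows of chromosome 16 the polyclonal population lay near 0. In chr16:15037854-22536535, chr16:23061406-29447026 and chr16:58515479-67932365 the medians were -0.42, -0.48 and -0.51. As deviations from the mean of the 4 origins, clone 5 was at 0.37, 0.32 and 0.56, the polyclonal population at -0.03, 0.02 and -0.01, clone 3 at -0.07, -0.17 and -0.18, and clone 6 at -0.31, -0.23 and -0.26. In these windows 12, 16 and 24 of the 50 genes were higher in clone 5 than in the polyclonal population (against 2.53% of all genes) and 0, 1 and 0 lower (against 4.18% of all; edgeR adjusted p under 0.05). In clone 6, 15, 10 and 7 were lower than in clone 3 (against 13.4% of all) and 6, 2 and 3 higher (against 12.8% of all; edgeR adjusted p under 0.05). The neighbouring windows of chromosome 19, chr19:50311937-52735073 and chr19:52797408-55280381, rich in zinc finger genes, had medians of -0.32 and -0.34 and hold NLRP2 but not PEG3. The first had -0.27 among untreated and -0.18 among doxycycline cultures. The number of gene copies was not measured in these libraries. The lower genes set apart were spread over all chromosomes, from 1.14% of the tested genes on chromosome 13 to 4.68% on chromosome 16, against 7.51% on chromosome 22.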

How the data were processed

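The authors sequenced stranded mRNA libraries and quantified transcripts with Salmon on a GRCh38 transcriptome. The deposited files hold estimated counts and effective lengths per transcript, and a deposited table holds the authors' DESeq2 comparison, of which only the mean signal per gene (normalized counts) was used, to find how much of each gene's reads was matched. Its fold changes and p-values were not used. Transcripts with a symbol (115325 of 158867) were summed to genes, rounded, filtered with edgeR's filterByExpr and scaled by TMM (R 4.3.3, edgeR 4.0.16), and log2 CPM used a prior count of 2. The share of reads of a gene is its summed counts over the deposited mean.

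The sides, gene lists and tests were chosen with earlier results of these data known. The differences between sides are least-squares coefficients with doxycycline as a term. Origins were tested with edgeR's quasi-likelihood F test and Benjamini-Hochberg adjustment over all 15993 genes, with doxycycline as a term. Since the 2 cultures of an origin are 1 untreated and 1 treated culture, p-values measure the spread between cultures of the same cells. The scripts were tested on simulated data. Genes were named by fixed rules: the targeted gene and fusion partners, 12 set-apart genes a direction with at least 5 CPM in the higher side and origins within 1 log2 unit, up to 4 per list, the smallest p of each test and the leading genes of the listed windows. Positions are from GENCODE 44 and promoters from RefSeq (GRCh38.p14). 986 genes had no position. Alternatives were DESeq2 (1.42.0), its size factors, other count filters, a length offset, other thresholds and leaving out each culture. A few genes that the naming rules select are not reported here.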

Additional observations from a re-analysis of the deposited data

Results flagged for a closer look

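Of the named genes 98 were examined for a culture far from the other 3 of its side (Dixon's criterion), 196 groups in all. The criterion's usual rate of about 1 in 20 holds for independent values. Here the 4 cultures of a side come from 2 origins, so that rate does not apply and nothing is drawn from the number marked. The criterion marked 5. RASSF8 was at 14.1 CPM in untreated clone 6 and at 3.79 to 4.19 in the rest of side A. CCK was at 8.66 CPM in clone 6 with doxycycline, against 2.17 to 3.08. FCAR was at 1.16 CPM in clone 5 with doxycycline, against 0.683 to 0.762 in the rest of side B. LOC107987423 was at 14.1 CPM in clone 6 with doxycycline and listed at 0 in the other 3. CLDND2, on 58.1% of its reads, was at 0.378 CPM in untreated clone 3 and listed at 0 in the other 3.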

How the results depend on the processing

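No alternative reversed a named gene's difference between the sides where it was at least 1, and smaller differences were not checked for reversal. Of 1261 recomputed values over 100 genes 1256 moved by less than the residual SD and 5 by more (RASSF8, SCN2A, CLDND2 and, under 2 settings, HSFX1). That SD includes the distance between the origins of a side and was 2.63 for TNS2, so the limit is a wide one. The 711 genes set apart became 1076 with a filter of 1 count in any library (81.4% lower against 79.6%), 366 with 10 counts in every library (68.9% lower, over 10 points fewer), 102 at a difference of 2 or more, and 225 of those with 5 CPM in the higher side (62.2% lower, chosen after seeing the data). Leaving out 1 culture, which leaves 1 culture of a side in a treatment and so an easier rule, gave 748 to 1340, with 540 to 658 of the 711 genes kept. The same gave 3449 to 5710 genes between the 4 origins, 1223 to 3385 between clones 6 and 3, 122 to 959 between clone 5 and the polyclonal population, 0 to 13 for the doxycycline effect by side, and 5 to 6 listed windows. The low counts came without clone 6 with doxycycline (3449 and 1223), clone 3 with doxycycline (1602 between clones 6 and 3), either culture of clone 5 (261 and 153 against the polyclonal population, 3826 and 3475 between origins) and either polyclonal culture (422 and 122; 4041 between origins without the one with doxycycline). Clone 3 with doxycycline gave the 1340 set apart and the polyclonal culture with doxycycline 1087. Replicate numbers mark only treatment: without the doxycycline term, thus with no replicate block, 2843 genes differed between origins. The doxycycline effect by side passed in 0 genes when origin was dropped as a block and doxycycline was kept. Clone 5 and the polyclonal population differed in 1675 genes by DESeq2, and the doxycycline effect by side in 10 by DESeq2 and in 27 with the filter of 1 count. Windows of 25 genes gave 17 listed, all lower in side A. The cause of these shifts was not tested. With 2 cultures an origin, small differences in weak genes are beyond this depth.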
